A study of Mus musculus with 14 samples.

Results

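The genes described here are the 4 INK4 inhibitors of cyclin-dependent kinases (Cdkn2a, Cdkn2b, Cdkn2c and Cdkn2d), the KIP inhibitor Cdkn1b, the D cyclins Ccnd1, Ccnd2 and Ccnd3, and the kinases Cdk4 and Cdk6. They were chosen by symbol, as the array probes that the platform annotation assigns to 1 of these genes alone, and a gene with several probes was represented by the probe with the highest mean signal. All 10 genes had such a probe, out of 19938 genes measured, and no filter on weak signal was applied to them. Cdkn1b was the only member with 2 probes.

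D cyclins rise when growth factors reach a cell, bind CDK4 or CDK6 and direct these kinases to phosphorylate the retinoblastoma protein (RB), which then releases E2F factors that drive the genes of DNA replication. INK4 proteins bind CDK4 and CDK6 and keep the D cyclins off them, whereas the KIP protein of Cdkn1b acts mainly on CDK2 and is also held by cyclin D complexes. Cdkn2a encodes an INK4 protein and, from another first exon and reading frame, the ARF protein, which acts outside the RB pathway. In cultured mouse fibroblasts the Cdkn2a and Cdkn2b locus is known for its activation as the cells age in culture, and as a barrier to reprogramming.

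The cells were MEFs, primary fibroblasts of mouse embryos, infected on day 0 with retroviruses for Sox2, Klf4 and Oct4 (together SKO, the 3 factors used to reprogram fibroblasts) or with a virus for green fluorescent protein (GFP). On day 2 all of them were moved to medium for embryonic stem cells, which holds the cytokine LIF. From day 2 on, and not before, vitamin C at 50 µg/ml was given to one arm of each virus. RNA of both arms was taken from SKO cells on days 3, 4, 5, 6, 8 and 10, which makes 12 arrays, and from GFP cells on day 3 only, which makes 2, so no condition was repeated on a day. The labels name no mouse strain and no separate cultures. The p-values below rest on how the treated-minus-untreated difference varied between day pairs of 1 time course, not on the spread between independent cultures. A shift shared by both arrays of a day is not part of this error, so tests between days or against GFP cells do not allow for it.

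Values are log2 signals, and the array medians lay between 5.19 and 5.28. On the second principal component of all genes the SKO arrays of days 3 and 5 lay from -35.88 to -16.43 and those of days 4, 6 and 8 from 4.08 to 27.14, with day 10 between them at -2.85 and 0.69 and the GFP arrays at 5.69 and 18.26. SKO day 3 and the GFP arrays therefore differed in this respect as well, so counts against GFP cells are given for the later SKO days too. The 13 fibroblast markers averaged 10.21 and 10.57 on the GFP arrays and between 9.69 and 9.97 on the SKO arrays, well above the array medians. Such a mean does not show that every cell of an array was a fibroblast. In bulk RNA, fewer cells that express a gene and less RNA of that gene per cell cannot be told apart.

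The starts of the INK4 genes and of Cdk6 are shown first, because these genes separated SKO from GFP cells in opposite directions. RefSeq start sites on mouse assembly GRCm38.p6 were found for 8 of the 10 genes, with 11 windows of 250 bases before the start. Each window below is written 5′ to 3′ along the gene's own strand and ends at the base before the start site used. The Cdk6 window lies inside the gene's RefSeq span (chr5:3341004-3531008). Most of the Cdkn2d window also lies inside the span of its gene (chr9:21288459-21291421). For both genes the start site used is therefore not the outermost one. Capitals mark an E2F-type match (TTTNNCGC) or an E-box (CACGTG), searched on both strands. For Cdkn2a the upstream start is that of the Arf transcript and the downstream start that of the Ink4a transcript.
Cdkn2a, Arf start, chr4:89294620-89294869, minus strand: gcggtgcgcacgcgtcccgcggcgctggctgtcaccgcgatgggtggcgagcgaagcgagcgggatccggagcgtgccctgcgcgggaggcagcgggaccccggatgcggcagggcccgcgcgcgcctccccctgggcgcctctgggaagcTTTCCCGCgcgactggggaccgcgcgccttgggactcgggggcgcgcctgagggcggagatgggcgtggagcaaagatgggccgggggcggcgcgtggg
Cdkn2a, Ink4a start, chr4:89282193-89282442, minus strand: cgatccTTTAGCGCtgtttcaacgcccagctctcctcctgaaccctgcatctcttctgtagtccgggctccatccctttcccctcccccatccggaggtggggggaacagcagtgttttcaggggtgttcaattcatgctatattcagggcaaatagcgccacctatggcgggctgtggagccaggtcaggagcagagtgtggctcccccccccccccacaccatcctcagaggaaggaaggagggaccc
Cdkn2b, chr4:89311033-89311282, minus strand: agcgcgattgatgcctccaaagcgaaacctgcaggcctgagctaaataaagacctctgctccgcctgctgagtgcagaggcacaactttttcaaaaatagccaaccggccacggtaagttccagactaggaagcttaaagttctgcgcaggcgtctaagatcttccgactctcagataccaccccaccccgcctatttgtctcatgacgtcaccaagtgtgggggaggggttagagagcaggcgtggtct
Cdkn2c, upstream start, chr4:109666757-109667006, minus strand: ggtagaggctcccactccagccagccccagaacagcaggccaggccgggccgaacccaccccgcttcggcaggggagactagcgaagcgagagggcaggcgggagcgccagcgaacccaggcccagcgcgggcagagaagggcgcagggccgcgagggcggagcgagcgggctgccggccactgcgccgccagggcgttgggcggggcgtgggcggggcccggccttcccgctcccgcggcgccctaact
Cdkn2d, chr9:21291210-21291459, minus strand: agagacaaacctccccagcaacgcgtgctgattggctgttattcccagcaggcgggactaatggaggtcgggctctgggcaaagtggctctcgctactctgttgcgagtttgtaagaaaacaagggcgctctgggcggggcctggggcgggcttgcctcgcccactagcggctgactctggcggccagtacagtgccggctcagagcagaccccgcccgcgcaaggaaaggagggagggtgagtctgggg
Cdk6, chr5:3343643-3343892, plus strand: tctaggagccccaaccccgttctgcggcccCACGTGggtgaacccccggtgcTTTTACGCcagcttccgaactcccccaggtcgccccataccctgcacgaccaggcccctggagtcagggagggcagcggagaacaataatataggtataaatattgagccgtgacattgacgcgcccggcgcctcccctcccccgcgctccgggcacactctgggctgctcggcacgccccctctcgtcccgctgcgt

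The E2F-type letters stood 99 bases before the Arf start as TTTCCCGC, 244 bases before the Ink4a start as TTTAGCGC and 198 bases before the Cdk6 start as TTTTACGC, and in no other member window. Such letters occur in 4.28% of the 32851 RefSeq windows of this length. E-box letters stood once in the Cdk6 window and 4 times in that of Cdk4, against 6.02% of all windows with at least 1. The octamer ATGCAAAT, a sequence that Oct4 can bind, was in no member window and in 1.6% of all windows. The GC box GGGCGG, a sequence that Sp1 type factors can bind, was found 3 times each before the upstream start of Cdkn2c and the start of Cdkn2d, 2 times before the Arf start, and not in the Ink4a, Cdkn2b or Cdk6 windows or before the downstream start of Cdkn2c. It was also found once each in the Cdkn1b and Cdk4 windows and at least once in both Ccnd3 windows, so 7 of the 11 member windows held it, against 32.7% of all windows. No match overlapped one of another motif, and a match describes these letters only.

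On day 3 the INK4 family was split in SKO cells. Cdkn2a and Cdkn2b, which are neighbours on chromosome 4, were lower than in GFP cells, and Cdkn2c and Cdkn2d were higher. Ccnd1 and Cdk6 were also higher, whereas Cdkn1b, Ccnd2, Ccnd3 and Cdk4 did not pass the test. With limma on all 14 arrays and Benjamini-Hochberg adjustment over all genes at 0.05, 6 of the 10 members were called, 4 higher and 2 lower in SKO cells. Of all genes, 17.6% were called in this comparison, 9.22% higher and 8.43% lower. Both counts moved with single arrays: the 6 members called became 2 without the treated SKO array and 2 without the treated GFP array. The 3519 genes called became 1298 and 1558 in these settings, and 2053 without the untreated SKO array. The median difference was 0.08 over the members and -0.04 over all genes.

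**Figure D1:**
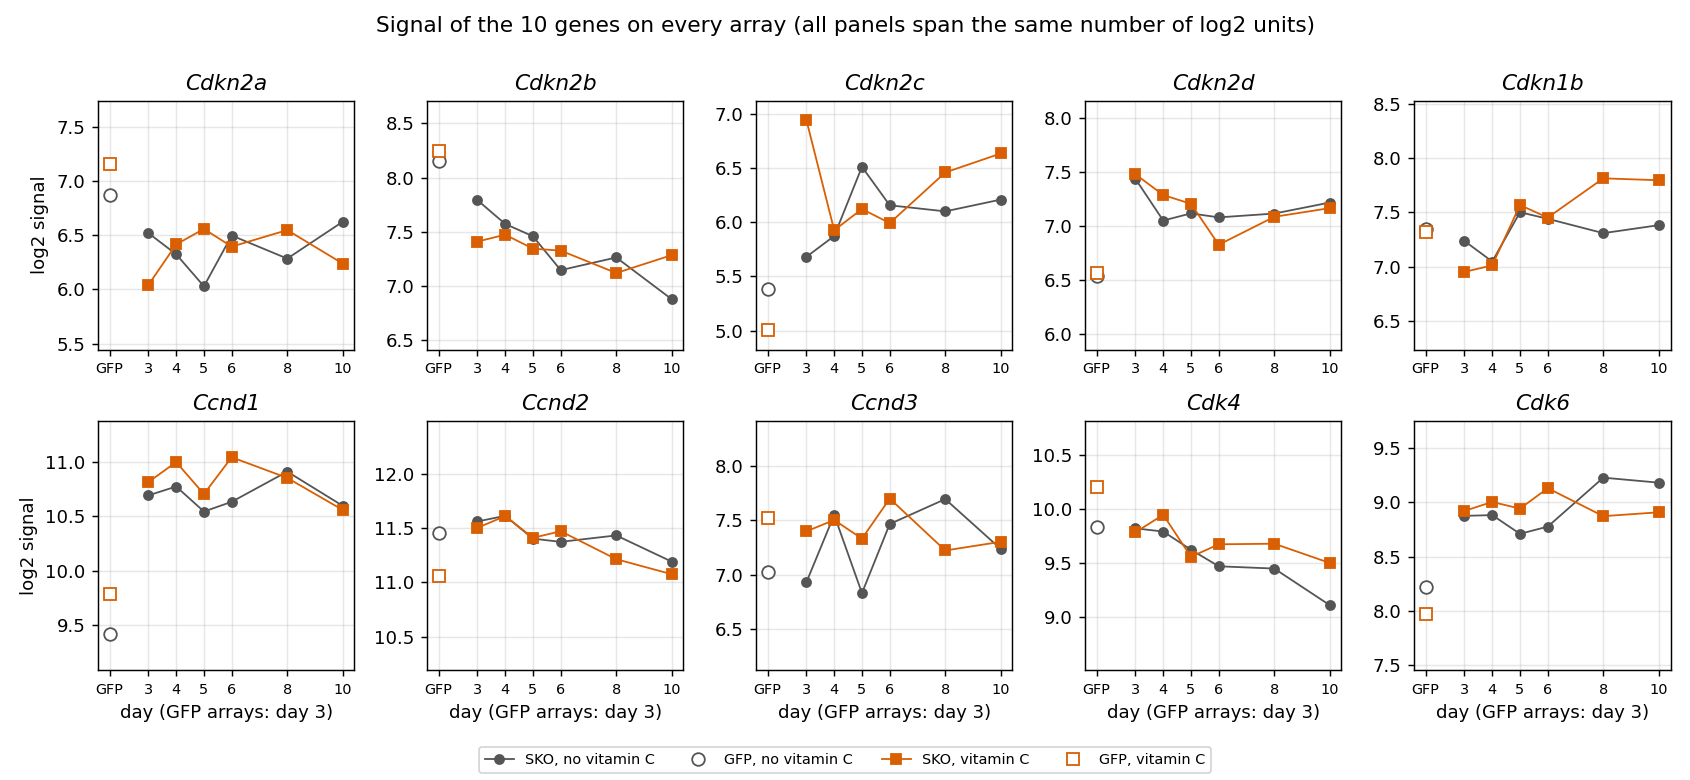
Log2 signal of each of the 10 genes (vertical axis) by day (horizontal axis) on all 14 arrays, 1 point per array, with SKO arrays joined by lines and the GFP arrays of day 3 as open symbols at the left. All 12 SKO points lie below both GFP points for Cdkn2a and Cdkn2b and above both for Cdkn2c, Cdkn2d, Ccnd1 and Cdk6.

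Cdkn2a gave log2 signals of 6.87 without and 7.16 with vitamin C in GFP cells. In untreated SKO cells it was 6.52, 6.33, 6.03, 6.50, 6.29 and 6.63 from day 3 to day 10, and with vitamin C 6.04, 6.42, 6.56, 6.40, 6.55 and 6.24. All 12 SKO arrays lay below both GFP arrays, and the SKO values showed no order by day. On day 3 Cdkn2a was 1.66-fold lower in SKO cells, a log2 difference of -0.73 ± 0.22 (SE, 2 arrays against 2, adjusted p = 0.0352 by limma). The same GFP arrays set against SKO cells of day 5 gave -0.72 (adjusted p = 0.0325), and days 4, 6, 8 and 10 gave differences between -0.57 and -0.64 with adjusted p from 0.0727 to 0.123. The call rested on few arrays: it was lost without the treated SKO array of day 3 (-0.44, adjusted p = 0.36), without the treated GFP array (-0.58, adjusted p = 0.262) and without the untreated GFP array (-0.88, adjusted p = 0.0572). The probe's annotation lists both RefSeq transcripts of the gene, so the Ink4a and Arf products were not told apart.

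Cdkn2b, the INK4 gene known for its induction by TGF-beta, was lower than in GFP cells on every day. Its signal in GFP cells was 8.16 without and 8.25 with vitamin C. Untreated SKO cells gave 7.79, 7.57, 7.46, 7.15, 7.26 and 6.88 on days 3, 4, 5, 6, 8 and 10, and treated SKO cells 7.41, 7.47, 7.34, 7.33, 7.12 and 7.28. The groups did not overlap. The difference from GFP cells was -0.60 ± 0.18 on day 3 (1.52-fold lower, adjusted p = 0.0355), -0.80 on day 5 and -1.12 ± 0.18 on day 10 (2.18-fold lower, adjusted p = 0.000472), and it passed the test on all 6 days. The difference was larger on each later day, but within SKO cells day 10 against day 3 gave -0.52 ± 0.18 and did not pass (adjusted p = 0.0957). On day 3 alone the call was lost without the treated SKO array (-0.38, adjusted p = 0.348), without the treated GFP array (-0.54, adjusted p = 0.198) and without the untreated GFP array (-0.66, adjusted p = 0.0828).

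Cdkn2c went the other way. GFP cells gave 5.39 without and 5.00 with vitamin C, and SKO cells from 5.68 to 6.94, all above. Untreated SKO cells read 5.68, 5.87, 6.51, 6.16, 6.10 and 6.21 over the 6 days and treated SKO cells 6.94, 5.93, 6.12, 5.99, 6.46 and 6.64. The treated array of day 3 was the highest and the untreated array of the same day the lowest of the 12, so the day 3 mean rests on a pair of arrays 1.26 apart. The day 3 difference from GFP cells was 1.12 ± 0.31 (2.17-fold higher, adjusted p = 0.0227). It was 0.48 (adjusted p = 0.341) without the treated SKO array and 0.80 (adjusted p = 0.255) without the treated GFP array, and 1.76 without the untreated SKO array. SKO cells of days 5, 8 and 10 passed against the same GFP arrays, with 1.23 ± 0.31 and adjusted p = 0.00945 on day 10, and days 4 (0.70, adjusted p = 0.233) and 6 (0.88, adjusted p = 0.0826) did not.

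Cdkn2d was the steadier of the pair. Its signal was 6.54 and 6.57 in GFP cells. In untreated SKO cells it was 7.43 on day 3 and then 7.05, 7.12, 7.08, 7.11 and 7.22, and in treated SKO cells 7.48, then 7.29, 7.20, 6.83, 7.08 and 7.16. Every SKO array exceeded both GFP arrays, and day 3 held the 2 highest values. The day 3 difference was 0.90 ± 0.15 (1.87-fold higher, adjusted p = 0.00126), and it stayed past the threshold when any of the 4 day 3 arrays was left out. Later days gave differences from 0.40 to 0.64, past the threshold on each day but day 6 (adjusted p = 0.115).

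Cdkn1b did not differ from GFP cells past the threshold on any day by the probe used. That probe read 7.35 and 7.32 in GFP cells, from 7.05 to 7.50 in untreated and from 6.95 to 7.81 in treated SKO cells, so the groups overlapped. The day 3 difference was -0.24 ± 0.19 (adjusted p = 0.435), with a 95% interval from -0.64 to 0.16. The other Cdkn1b probe disagreed: its means were 5.70 in GFP cells and 6.39 in SKO cells of day 3, a difference of 0.69 in the opposite direction. On that probe the day means swung from 6.39 on day 3 to 5.50 on day 4 and 6.87 on day 5, a swing that the probe used showed less (7.09, 7.03 and 7.53). A direction for Cdkn1b between SKO and GFP cells is therefore not given.

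Among the D cyclins only Ccnd1, the form fibroblasts raise when mitogens and adhesion signal, passed the test. The gene lies on chromosome 7 from 144929931 to 144939831 (GRCm38.p6). Its signal was 9.41 and 9.78 in GFP cells. Untreated SKO cells gave 10.69, 10.78, 10.54, 10.63, 10.91 and 10.60 over the 6 days and treated SKO cells 10.82, 11.00, 10.71, 11.05, 10.86 and 10.56. The gap between the lowest SKO and the highest GFP array exceeded the whole range of the SKO arrays, which was 0.50. Ccnd1 was 2.23-fold higher on day 3, a difference of 1.16 ± 0.16 (adjusted p = 0.000329), and between 1.98-fold and 2.45-fold higher on each of the 6 days, with adjusted p from 8.25e-05 to 0.000502. With each day 3 array left out in turn the day 3 difference ranged from 1.04 to 1.28 and stayed past the threshold.

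Ccnd2, the D cyclin prominent in gonads and lymphocytes, read 11.46 and 11.06 in GFP cells and from 11.08 to 11.61 in SKO cells. Its day 3 difference was 0.27 ± 0.16 (adjusted p = 0.27, 95% interval -0.06 to 0.61). Ccnd3 read 7.03 and 7.52 in GFP cells and from 6.83 to 7.70 in SKO cells, with a day 3 difference of -0.11 ± 0.22 (adjusted p = 0.794, 95% interval -0.58 to 0.36). The groups overlapped for both genes, and neither passed on any of the 6 days. Both intervals end below 0.81, the lower end of the day 3 interval of Ccnd1.

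The kinases also parted. Cdk6 read 8.22 and 7.97 in GFP cells, 8.88, 8.88, 8.71, 8.78, 9.23 and 9.18 in untreated SKO cells from day 3 to day 10, and 8.92, 9.00, 8.94, 9.13, 8.87 and 8.91 in treated ones. It was higher on all 12 SKO arrays than on either GFP array. The day 3 difference was 0.81 ± 0.19 (1.75-fold higher, adjusted p = 0.00958), and all 6 days passed at 1.66-fold to 1.94-fold. On day 3 the call was lost without the treated SKO array (0.77, adjusted p = 0.0861) and without the treated GFP array (0.67, adjusted p = 0.111).

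Cdk4 read 9.83 and 10.21 in GFP cells, 9.82, 9.79, 9.62, 9.47, 9.45 and 9.11 in untreated SKO cells and 9.78, 9.95, 9.56, 9.67, 9.68 and 9.50 in treated SKO cells. The groups overlapped only through the treated SKO array of day 4. On day 3 the difference was -0.22 ± 0.16 (adjusted p = 0.408). Against the same GFP arrays SKO cells of day 10 were 1.64-fold lower, -0.71 ± 0.16 (adjusted p = 0.00482), and days 5, 6 and 8 gave -0.43, -0.45 and -0.45 with adjusted p from 0.0764 to 0.0915.

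**Figure D2:**
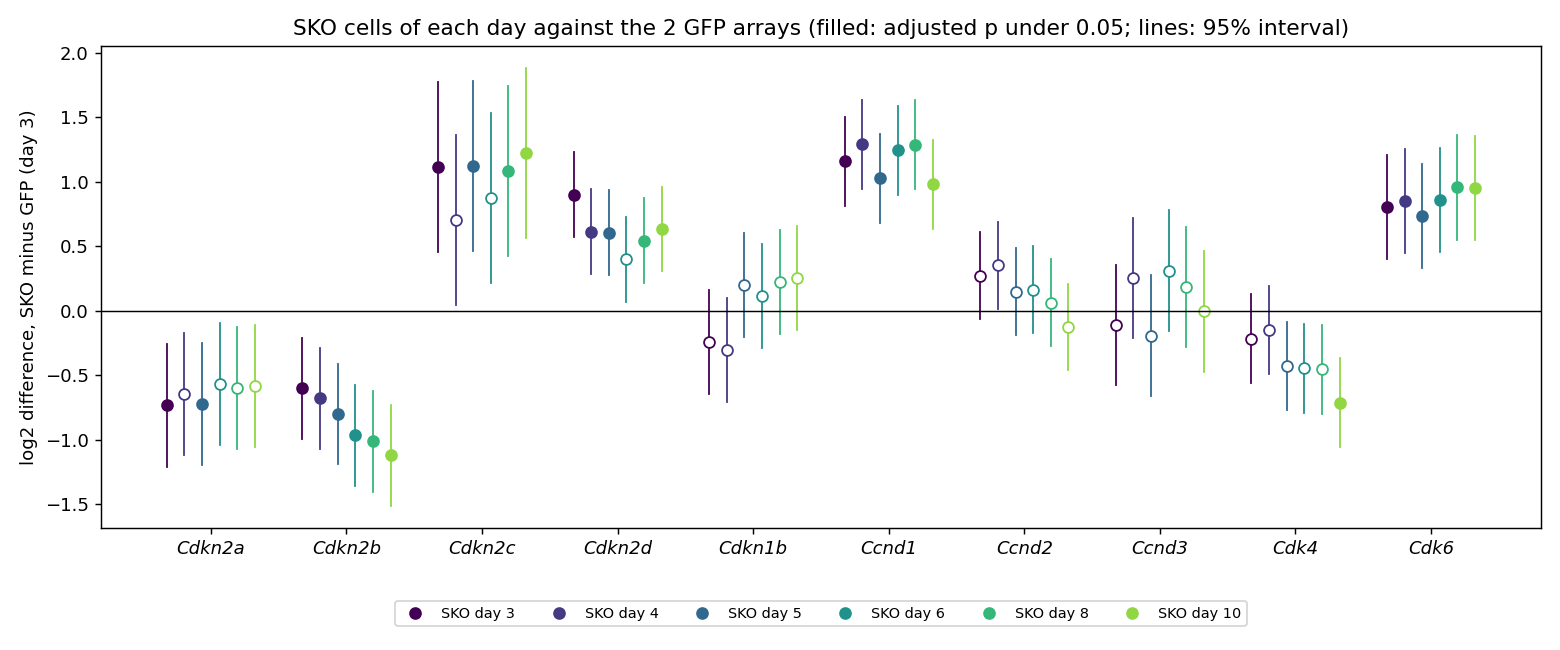
Log2 difference between SKO cells of each day and the GFP cells of day 3 (vertical axis) for the 10 genes, as points with 95% intervals from limma, filled where adjusted p was under 0.05. The 6 comparisons share the same 2 GFP arrays. Ccnd1 and Cdk6 lie above 0.7 and Cdkn2b at or below -0.60 on every day, all filled.

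All 12 SKO arrays lay above both GFP arrays for 4 members and below both for 2, against 6.92% and 7.47% of all genes, or 14.4% on either side. The comparisons of later days used the same 2 GFP arrays, which were lysed on day 3, so they hold time in culture as well as the virus. The members called numbered 4, 6, 3, 5 and 6 for days 4, 5, 6, 8 and 10. The shares of all genes called on these days were 7.78%, 20.8%, 12.2%, 14.1% and 24.3%. Ccnd1, Cdkn2b and Cdk6 were past the threshold on 6 of 6 days, Cdkn2d on 5, Cdkn2c on 4, Cdkn2a on 2 and Cdk4 on 1.

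The other genes of the RB pathway differed in both directions on day 3. Of 28 measured genes of the RB and E2F list, 13 were higher and 3 lower in SKO cells, with a median difference of 0.36 against -0.04 over all genes. Rb1, the retinoblastoma gene itself, was 2.67-fold higher (1.42 ± 0.23, adjusted p = 0.000874) and Ccne2, a cyclin that activates CDK2 before replication, 2.43-fold higher (1.28 ± 0.20). The 2 largest falls were those of Cdkn1c, the imprinted gene of another KIP inhibitor, at 3.45-fold lower (-1.79 ± 0.18, adjusted p = 4.36e-05), and of E2f4, which encodes an E2F that mostly represses, at 2.12-fold lower (-1.09 ± 0.22). Against the same GFP arrays the list gave 4 genes higher and 1 lower for SKO day 4, 7 and 5 for day 5, 5 and 0 for day 6, 4 and 0 for day 8, and 4 and 4 for day 10.

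**Figure D3:**
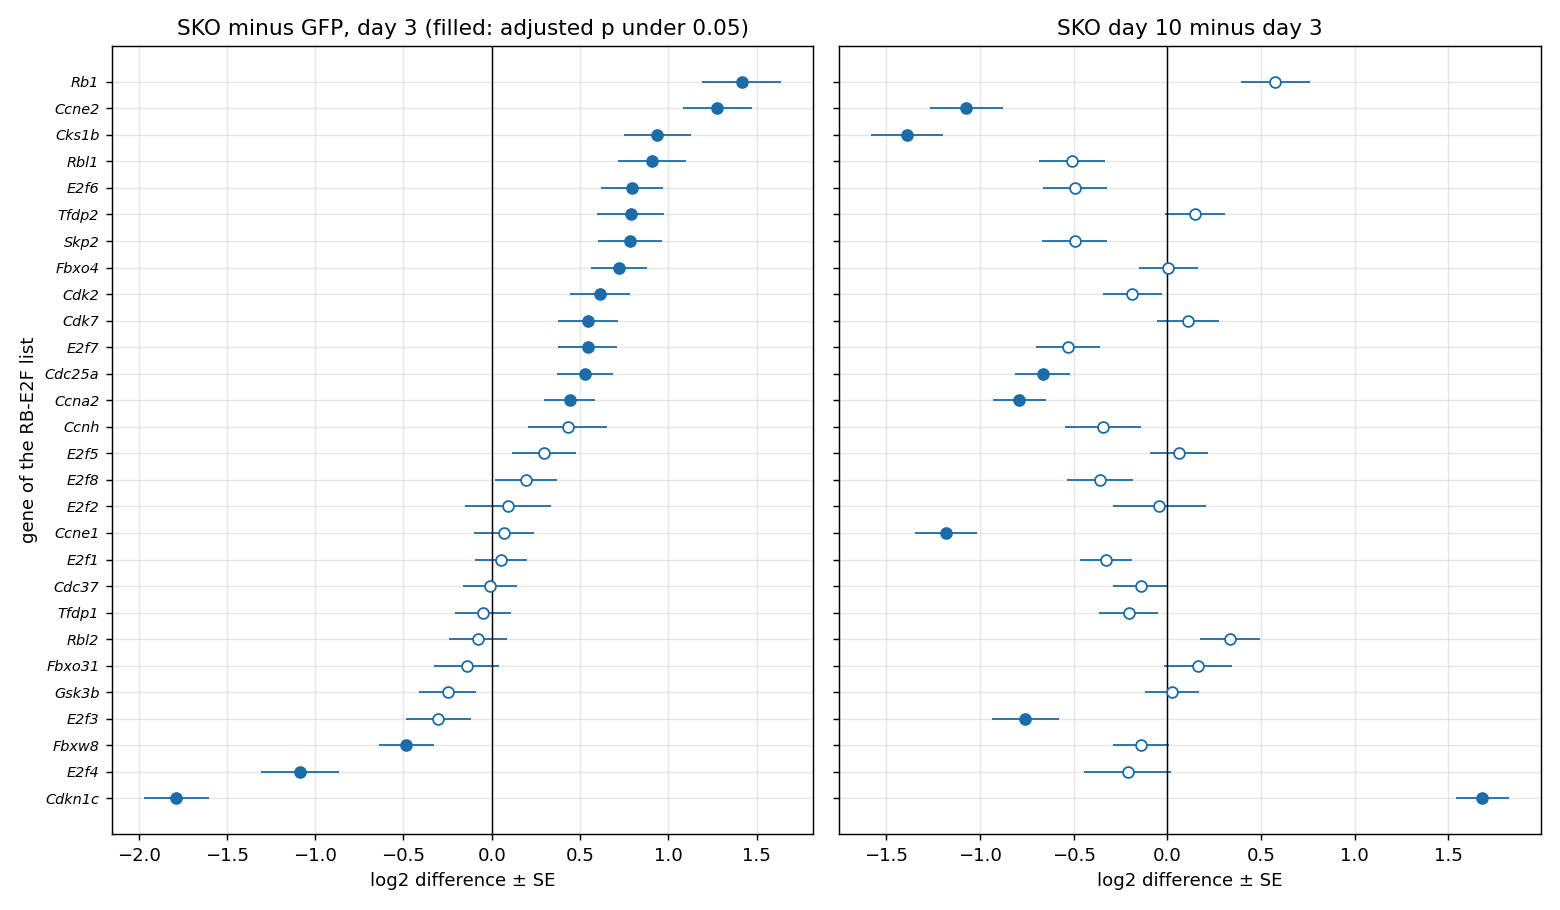
Log2 difference ± SE of the 28 measured RB and E2F genes (horizontal axis), in order of the difference between SKO and GFP cells on day 3, for that comparison on the left and for SKO day 10 minus day 3 on the right, filled where adjusted p was under 0.05. Cdkn1c is lowest on the left at -1.79 and highest on the right at 1.68.

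Of 24 measured proliferation genes, 23 were higher in SKO cells of day 3 and none lower, with a median difference of 1.09. Rrm2, a subunit of the enzyme that makes deoxynucleotides, was 4.11-fold higher, Bub1, a mitotic checkpoint kinase, 3.33-fold, Kif11, a spindle motor, 2.72-fold and Pcna, the sliding clamp of replication, 2.65-fold. The mean of the list was 7.23 and 7.09 on the GFP arrays and 8.11 and 8.38 on the SKO arrays of day 3. Its part in the differences of Ccnd1, Cdk6, Cdkn2c and Cdkn2d was not tested. The genes higher than in GFP cells numbered 20, 17, 14 and 7 for SKO days 4, 5, 6 and 8, with none lower. By day 10 the list mean had come down to 7.40 and 7.51. On that day 5 of the 24 genes were higher than in GFP cells and 1 lower, with a median difference of 0.29.

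Of 28 genes that regulate the Cdkn2a and Cdkn2b locus, 5 were higher and 5 lower in SKO cells on day 3, with a median of -0.15. Later SKO days gave 3 higher and 1 lower (day 4), 8 and 3 (day 5), 7 and 1 (day 6), 6 and 1 (day 8) and 8 and 6 (day 10). The list holds both repressors and activators of the locus, so these counts give no direction for it. Ezh2, the methyltransferase of Polycomb complex PRC2, was 2.30-fold higher (1.20 ± 0.20), whereas Pcgf2, a Polycomb complex PRC1 subunit, was 2.69-fold lower (-1.43 ± 0.16). Kdm6b, a demethylase that removes the PRC2 mark, was lower by 1.97-fold, and Ets2, a factor that can activate Ink4a, by 1.90-fold. The other INK4 regulators Bmi1 and Kdm2b gave -0.15 (adjusted p = 0.662) and -0.17 (adjusted p = 0.528). Of the 3 genes listed as neighbours of the locus, Elavl2 was 1.73-fold higher (adjusted p = 0.0256), and Mtap and Dmrta1 did not pass. On later days these 3 genes gave at most 1 call in each direction.

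Of 14 measured inducers of D cyclins and early growth genes, none was higher and 5 were lower on day 3. The 4 largest were Rela, the NF-kB subunit (-0.76), the immediate early factor Egr1 (-0.75), the Wnt effector Tcf7l2 (-0.62) and the serum response factor Srf (-0.61). Ccnd1 was higher on the same arrays. Later SKO days gave 4 higher and 1 lower (day 4), 3 and 4 (day 5), 2 and 1 (day 6), 3 and 1 (day 8) and 3 and 2 (day 10).

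Marker genes of other cell types were read on the same arrays. Fibroblast markers were lower on day 3 in 7 of 13 and higher in none. Of 12 macrophage markers 1 was lower, and their mean was 4.79 and 5.01 on the GFP arrays against 4.55 and 4.66 on the SKO arrays of day 3. None of 5 epithelial or 6 pluripotency markers passed. The endothelial list had 1 of 6 higher (Tek), the erythroid list 1 of 4 higher (Hbb-y) and the skeletal muscle list 1 of 5 lower (Des). On later SKO days 4 to 7 fibroblast markers were lower than in GFP cells and at most 1 higher. Macrophage markers gave 1 higher on days 4, 5, 6 and 8 (and 1 lower on day 4) and 9 of 12 higher on day 10. Epithelial markers gave 1 higher on day 4, 3 on days 5, 6 and 8 and 4 of 5 on day 10, and pluripotency markers 3 of 6 higher on day 10 and none before. The endothelial and erythroid lists gave 1 gene higher on each day, with 1 erythroid gene lower on day 5, and 1 or 2 muscle markers were lower. Array signals have no zero, so no marker can be called absent. The part of these genes in the members' differences was not tested.

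Over the time course of SKO cells no member changed past the threshold. For day 10 against day 3, limma on the SKO arrays, with vitamin C and day as terms, called 0 of 10 members, against 12.2% of all genes. An unadjusted p under 0.05 was reached by 4 of the 10 members and by 24.7% of all genes. Cdk4 came nearest, with -0.50 ± 0.15 (adjusted p = 0.0588), followed by Cdkn2b at -0.52 ± 0.18 and Ccnd2 at -0.40 ± 0.14, each with adjusted p = 0.0957, and Cdkn1b at 0.50 ± 0.19 (adjusted p = 0.126). The other 6 members gave -0.27 (Cdkn2d), -0.18 (Ccnd1), 0.10 (Ccnd3), 0.11 (Cdkn2c), 0.15 (Cdk6) and 0.15 (Cdkn2a). Cdk4 passed under 5 of 14 alternatives, among them the centring of each array on its median (adjusted p = 0.0332), and Ccnd2 under 2. The 14 include day 4 or day 5 as the base in place of day 3, which are other contrasts. Day 4 as the base gave a pass of each gene (adjusted p = 0.0296 for Cdk4 and 0.0402 for Ccnd2). Over the 14 the adjusted p went from 0.0151 to 0.51 for Cdk4 and from 0.0197 to 0.478 for Ccnd2.

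The values behind these differences were as follows for Ccnd2: untreated SKO cells gave 11.56, 11.61, 11.40, 11.37, 11.43 and 11.19, and treated SKO cells 11.50, 11.61, 11.41, 11.47, 11.21 and 11.08. Day 10 was the lowest day of both arms, as it was for Cdk4. Cdkn1b read 6.95 and 7.01 on days 3 and 4 and 7.57, 7.45, 7.81 and 7.80 on days 5, 6, 8 and 10 in treated cells, while untreated cells gave 7.24, 7.05, 7.50, 7.44, 7.31 and 7.38. Its other probe gave a larger difference between day 10 and day 3, 0.86, in the same direction.

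A test of any difference among the 6 days called 0 of 10 members (adjusted p from 0.129 to 0.967), against 18.9% of all genes. Under an unadjusted p of 0.05 were 2 members (Cdkn1b and Cdk4) and 33% of all genes. With the mean of its 2 probes Cdkn1b passed this test, with 1.16 between the lowest and highest day and adjusted p = 0.0247. Steps between neighbouring days were also tested. Of 50 tests over the 10 members and 5 steps, 0 passed and 2 had an unadjusted p under 0.05, Cdkn1b from day 4 to day 5 (0.51 ± 0.19) and Ccnd3 from day 5 to day 6 (0.50 ± 0.21). Of all genes, 8.01% passed from day 3 to 4, 7.23% from day 4 to 5, 2.11% from day 5 to 6, 0% from day 6 to 8 and 3.00% from day 8 to 10. In the same order 24.6%, 23.6%, 18.9%, 3.07% and 18.6% of all genes had an unadjusted p under 0.05.

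Other genes of the pathway passed between day 3 and day 10. Of the 28 RB and E2F genes 1 was higher and 6 lower on day 10, with a median of -0.21 against -0.02 over all genes. Cdkn1c was 3.20-fold higher (1.68 ± 0.14, adjusted p = 2.82e-05). The falls were led by Cks1b, a subunit that lets SCF-Skp2 mark Cdkn1b protein for destruction, at 2.62-fold (-1.39 ± 0.19), and by the E cyclins Ccne1 (2.27-fold) and Ccne2 (2.10-fold). Of 24 proliferation genes 20 were lower and none higher, with a median of -0.78. Bub1, Tpx2, Aurka and Plk1, all needed for mitosis, were lower by 2.40-fold, 2.38-fold, 2.18-fold and 2.09-fold.

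Among the regulators of the INK4 locus 3 were higher and 1 lower on day 10. Jarid2, a PRC2 partner, was 1.88-fold higher, Tbx2, a repressor of the locus, 1.73-fold and the PRC1 chromodomain gene Cbx7 1.48-fold, and Hmga2, a chromatin protein of growing cells, 1.71-fold lower. Mtap, which lies beside the locus, was 1.57-fold lower (-0.65 ± 0.17, adjusted p = 0.0305). Of the early growth genes Fos was 1.79-fold higher and Fosl1 1.80-fold lower, each a subunit of the AP-1 factor that acts on Ccnd1.

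Other cell type markers moved with these days. Of 12 macrophage markers 10 were higher on day 10 than on day 3 and none lower, and their mean went from 4.55 and 4.66 to 6.04 and 5.92. Of 5 epithelial markers 4 were higher, with means from 4.65 and 4.68 to 5.95 and 6.22. Nanog and Tdgf1 of 6 pluripotency markers were higher, and so was Tek of 6 endothelial ones. Of the fibroblast markers 3 were higher and 2 lower, 2 of 5 skeletal muscle markers were lower and no erythroid marker passed. The part of these changes in the day differences of Cdk4, Cdkn2b, Ccnd2 and Cdkn1b was not tested.

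Vitamin C changed none of the 10 members past the threshold. With limma on the 6 day pairs of SKO cells, 0 of 10 were called and 0 had an unadjusted p under 0.05, with adjusted p from 0.589 to 0.989. Of all genes 0.933% were called, and 11.6% had an unadjusted p under 0.05. The differences, treated minus untreated, lay between -0.05 for Ccnd2 and 0.26 for Cdkn2c. Cdkn2a gave -0.01 ± 0.13 with a 95% interval from -0.30 to 0.27, and Cdkn2b -0.03 ± 0.11 with an interval from -0.26 to 0.21. Cdkn2d gave 0.01 ± 0.09, Cdkn1b 0.11 ± 0.11, Ccnd1 0.14 ± 0.09, Ccnd3 0.13 ± 0.12, Cdk4 0.15 ± 0.09 and Cdk6 0.02 ± 0.11. With Ccnd2, the intervals of these members lay between -0.23 and 0.40. The interval of Cdkn2c was the widest, from -0.12 to 0.64.

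**Figure D4:**
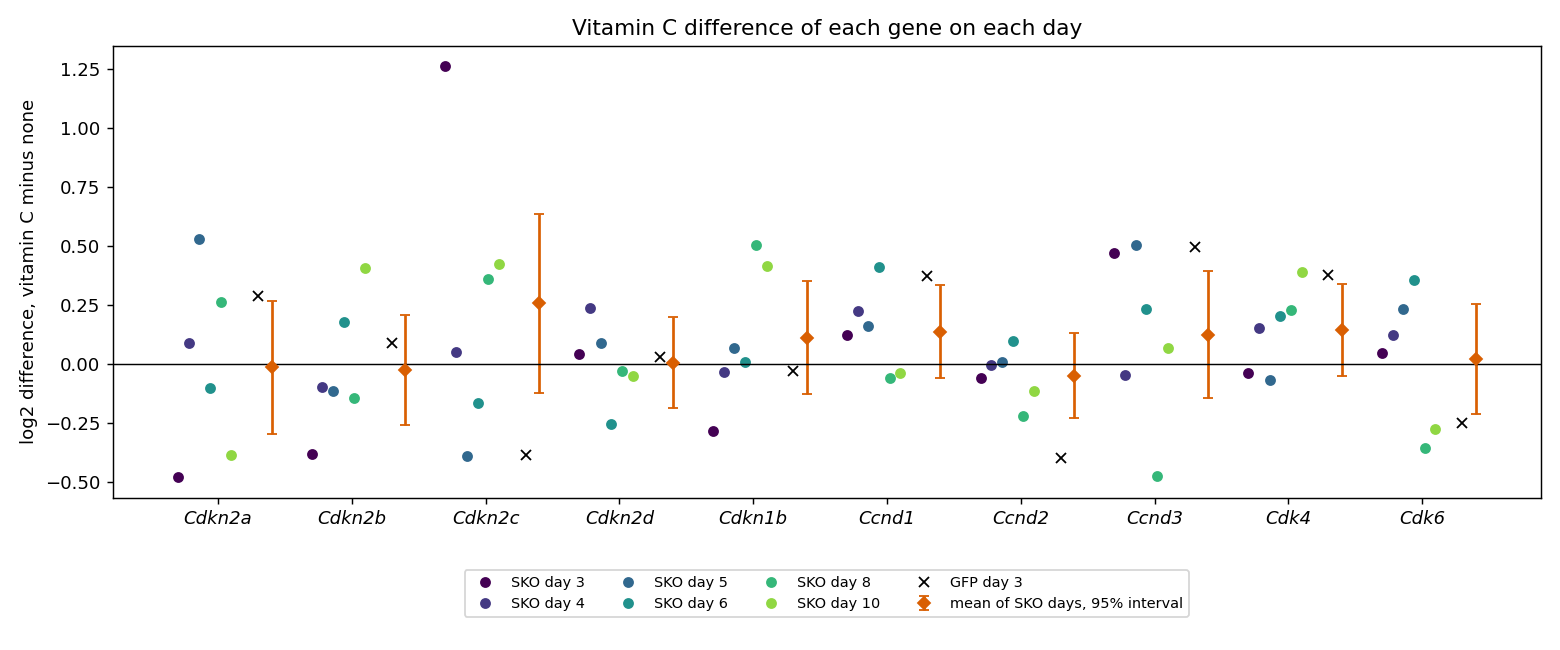
Log2 difference between cells with and without vitamin C (vertical axis) for the 10 genes, 1 point per SKO day, a cross for the GFP pair of day 3, and a diamond for the mean of the SKO days with its 95% interval from limma. All 10 intervals hold 0, and the day 3 point of Cdkn2c stands apart at 1.26.

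The day pairs scattered around 0. Cdkn2a was higher with vitamin C on 3 days and lower on 3, from -0.48 on day 3 to 0.53 on day 5. Cdkn2b was higher on 2 and lower on 4, from -0.38 on day 3 to 0.41 on day 10. Cdkn2c gave 0.26 ± 0.17, with 1.26 on day 3 and values from -0.39 to 0.43 on the other days, and without day 3 its mean was 0.06 ± 0.13. No member had the same sign on all 6 days.

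Ccnd1 and Cdk6 were both higher with vitamin C on days 3, 4, 5 and 6 and lower on days 8 and 10. The Ccnd1 differences were 0.12, 0.22, 0.16, 0.41, -0.06 and -0.04, and those of Cdk6 0.05, 0.12, 0.23, 0.35, -0.36 and -0.27. Cdkn1b went from -0.29 on day 3 to 0.51 on day 8 and 0.41 on day 10. A test of the slope of the vitamin C difference on the day called 0 of 10 members and 0.0351% of all genes. Cdkn1b alone of the members had an unadjusted p under 0.05 (0.10 ± 0.04 per day, adjusted p = 0.502), against 7.87% of all genes. The slope was -0.07 ± 0.04 per day for Cdk6 (adjusted p = 0.73) and -0.04 ± 0.04 for Ccnd1 (adjusted p = 0.877).

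In the single GFP pair Ccnd3 was higher with vitamin C by 0.49, Cdk4 by 0.38 and Ccnd1 by 0.37, and the differences were -0.40 for Ccnd2, -0.38 for Cdkn2c and -0.25 for Cdk6. Whether vitamin C acted differently in GFP and in SKO cells was tested as an interaction, which passed for 0 of 10 members (0 at an unadjusted p under 0.05, adjusted p from 0.779 to 0.989) and for 0% of all genes, of which 1377 had an unadjusted p under 0.05. The lists around the members gave the same count of 0 in SKO cells for the RB and E2F, INK4 regulator, neighbour, proliferation and D cyclin inducer genes. Among markers 1 fibroblast gene (Lum, 1.80-fold higher) and 1 endothelial gene (Tek, 1.49-fold higher) passed.

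Across the 12 SKO arrays some members varied together. The pairs with the highest Pearson r were Cdkn2b with Cdk4 (0.80), Cdkn2b with Ccnd2 (0.72), Ccnd2 with Cdk4 (0.70) and Ccnd1 with Ccnd3 (0.68), and the lowest was Cdkn1b with Ccnd2 (-0.81). Correlations of Cdkn1b, here and below, rest on its probe of higher mean, and its other probe was not compared. Cdkn2a and Cdkn2b, neighbours on chromosome 4, gave -0.33. Of all other genes, those most like Cdkn2b were Sult4a1 (0.93) and Acta2, the smooth muscle actin gene (0.92). Those most like Ccnd2 were Flna, a cross-linker of actin filaments, and Ube2s, a ubiquitin enzyme of mitosis (both 0.97), and those most like Ccnd1 were Gstp1 and Rcan2 (both 0.92).

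Cdkn1b was most like Oxr1 and Col14a1, a fibril-associated collagen gene (both 0.96), Cdk4 like Parp3 (0.94) and Msto1 (0.94), and Ccnd3 like Trim62 and Adi1 (both 0.91). Cdkn2d was most like Dydc1 (0.95) and Gnb4 (0.92), Cdk6 like Tnfrsf22 (0.86) and Fcgr4 (0.84), Cdkn2c like Mup21 and Zfp120 (both 0.86), and Cdkn2a like Fbxo27 (0.82) and Tas2r114 (0.79). Tas2r114, Mup21 and Fcgr4 had mean signals of 2.53, 1.73 and 2.95, near the bottom of the range. These correlations describe 12 arrays of 1 time course, were picked as the highest among all genes and carry no test.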

How the data were processed

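Total RNA (100 ng per labelling, per the labels' protocols) was measured on 14 Affymetrix whole-transcript arrays. The authors deposited 1 log2 value per probe and array, made with RMA and Partek per the submitters' processing notes (versions not given there); the log2 scale was read from the values (0.724 to 14.1). RMA compresses differences of weak genes. Of 28853 probes 21789 carried 1 gene symbol, which gave 19938 genes by the probe of highest mean.

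Differences were fitted with lmFit and eBayes of limma 3.58.1 (R 4.3.3), adjusted by Benjamini-Hochberg over every gene with a threshold of 0.05, and the code was tested on simulated data. The fit of vitamin C and day took the 12 SKO arrays and left 5 residual degrees of freedom, and that of SKO against GFP took all 14 and left 6. The labels pair a treated and an untreated array by day, and the paired arrays' deviations from the arm means correlated with r from 0.248 to 0.677. The members and lists were chosen with earlier results of these data known, so their p-values are no independent evidence. The rule names all 10 members in every comparison; for the tests of any day, neighbouring days, the slope and the interaction most are given as counts and ranges only. It adds the 2 genes of highest r per member and up to 4 list genes of largest difference past the threshold. For the former, clone names, predicted and histone genes, receptor genes named Olfr or Vmn and small RNAs were left out. Bmi1, Kdm2b, Mtap and Dmrta1 were named outside this rule, after their values were seen. Of the 30 RB and E2F genes 28, of the 26 proliferation genes 24, of the 15 D cyclin inducers 14 and of the 5 erythroid markers 4 were analysed here. Promoters came from a RefSeq table. Alternatives were other normalizations, filters, variance models, probes, days and left-out arrays; SKO days 5 to 10 against GFP were added after seeing the data. Figures used matplotlib 3.10.9.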

Additional observations from a re-analysis of the deposited data

How the results depend on the processing

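No direction of a called member was reversed. Of the 10 members, SKO against GFP called 6, and 3 with SKO day 6 (chosen after seeing the data). For this comparison only the 4 day 3 arrays were left out in turn, which leaves 1 array in a group. Day 10 against day 3 called 0, but 1 after median centring, without the weakest genes or with array weights, 2 with an intensity trend and 2 with day 4 as the base. Here only the SKO arrays of day 3 and day 10 were left out in turn. The test of any day called 0, 2 with an intensity trend, 1 (Cdkn1b) with the mean of a gene's probes, which also called 1 from day 4 to day 5. Vitamin C, its slope and its difference between viruses called 0 under every alternative. Cdkn2a missed the threshold with array weights (adjusted p = 0.0505). Counts over all genes moved more. Vitamin C called 186 genes, 364 with a trend, 4 without the day term, 0 on days 3, 5 and 10, 62 on days 4, 6 and 8, and 23 to 263 with 1 day left out. Day 10 against day 3 called 2430, 345 with day 5 as the base and 964 to 1511 with 1 array left out. Any day called 3773, 1232 on days 3, 5 and 10, 175 on days 4, 6 and 8 and 1991 to 4323 with 1 day left out. SKO against GFP called 3519, 1551 with SKO day 4 and 1298 to 2758 with 1 array left out. Without the weakest genes (6646 left out) and with a trend, neighbouring days gave 2504 and 2528 (against 1598, day 4 against 3), 2327 and 2354 (1442, day 5 against 4), 1160 and 1293 (420, day 6 against 5) and 1092 and 1224 (599, day 10 against 8). The slope gave 23 and 35 (7, and 0 to 10 with 1 day left out), and the virus difference 1 with a trend (0). The left-out settings also held fewer arrays or genes, and counts moved both up and down in them. The causes of these moves were not tested. The labels give no replicate numbers, so the day is the only pairing, and without the day term vitamin C also called 0 members. With 1 array per condition and day and weak signals compressed by RMA, small changes of weak genes were not detectable.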
